A study of Mus musculus with 12 samples.

Results

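The genes described here are 38 mouse genes of fatty acid oxidation and of the response to PPARs, the peroxisome proliferator-activated receptors. They were chosen by symbol, and each took the probe set that is assigned to that gene alone and has the highest mean over the 12 arrays. This gave values for 35 of the 38 genes, among 19938 genes measured in all. Acsl3 shared its probe set with Utp14b, and no probe set carried Ucp2 or Acsl1 as its only symbol, so these 3 genes are not analysed here. Hadhb had 2 such probe sets and the other 34 genes had 1.

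PPARs are nuclear receptors that are activated by fatty acids and bind DNA as partners of the retinoid X receptors. In the small intestine, absorptive enterocytes take up dietary fat, and PPAR-alpha and PPAR-beta/delta are known there as activators of genes that store, carry and burn it. Burning starts when a fatty acid is joined to coenzyme A and passed into the mitochondrion as a carnitine ester, after which repeated rounds of dehydrogenation, hydration, a further dehydrogenation and cleavage shorten the chain; peroxisomes run a similar cycle on very long or unusual chains.

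Epithelium was cut by laser from stained intestinal sections of male C57BL6/J mice, all of them APCmin/+, a background that forms intestinal adenomas, at 25 weeks or at an earlier endpoint set by weight. KO arrays came from FSPCre-PPARB -/- mice, whose Cre is driven by a promoter named for a fibroblast protein and removes Ppard, the gene of PPAR-beta/delta; floxed arrays came from PPARB flox/flox littermates. The labels gave 3 KO tumor, 3 floxed tumor, 2 KO adjacent and 2 floxed adjacent arrays, where adjacent means epithelium beside a tumor. A further 2 adjacent arrays carried contradictory genotypes and entered only the comparison of tumor with adjacent epithelium over all 12 arrays: the title of conflict array 1 says KO and its genotype characteristic says floxed, and for conflict array 2 it is the other way round. Nothing ties an array to an animal, so arrays may share animals, the spread between them may be partly technical, and p-values may be too small. The promoter that drives Cre is not an epithelial one, so Ppard in this tissue does not check the genotype labels.

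All values are log2 expression values, and differences are log2 differences with their SE. Signal was uneven: floxed tumor arrays 1 and 2 and both floxed adjacent arrays, called weak-signal arrays here, had a median correlation with the other arrays under 0.7, so that 0 of 5 KO arrays and 4 of 5 floxed arrays were weak. Each array was also given a dark level, the 95th percentile of 1194 receptor genes of smell and of the vomeronasal organ, which epithelium is not known to use. Epithelial markers passed that level in 10 of 10 genes on all KO arrays, on floxed tumor array 3 and on both conflict arrays, in 9 and 5 of 10 on floxed tumor arrays 1 and 2, and in 5 and 3 of 10 on the floxed adjacent arrays.

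The genes of the set stood clear of background mainly on the arrays without weak signal. Of the 35 genes, 30, 31 and 31 stood above the dark level in KO tumor arrays 1 to 3, against 16, 3 and 33 in the floxed ones. Adjacent epithelium had 30 and 28 genes above it in KO arrays, against 5 and 4 in floxed arrays, and the conflict arrays held 30 and 28. Acadvl, the very-long-chain acyl-CoA dehydrogenase, and Acaa2, the thiolase that ends a mitochondrial round, were above it on 12 of 12 arrays. Cyp4a14, a fatty acid omega-hydroxylase, passed it on 0 of 12 arrays, and Eci2, Acot1 and Cyp4a10 passed it on 1 of 12 arrays each and on 0 of the 5 KO arrays.

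**Figure D1:**
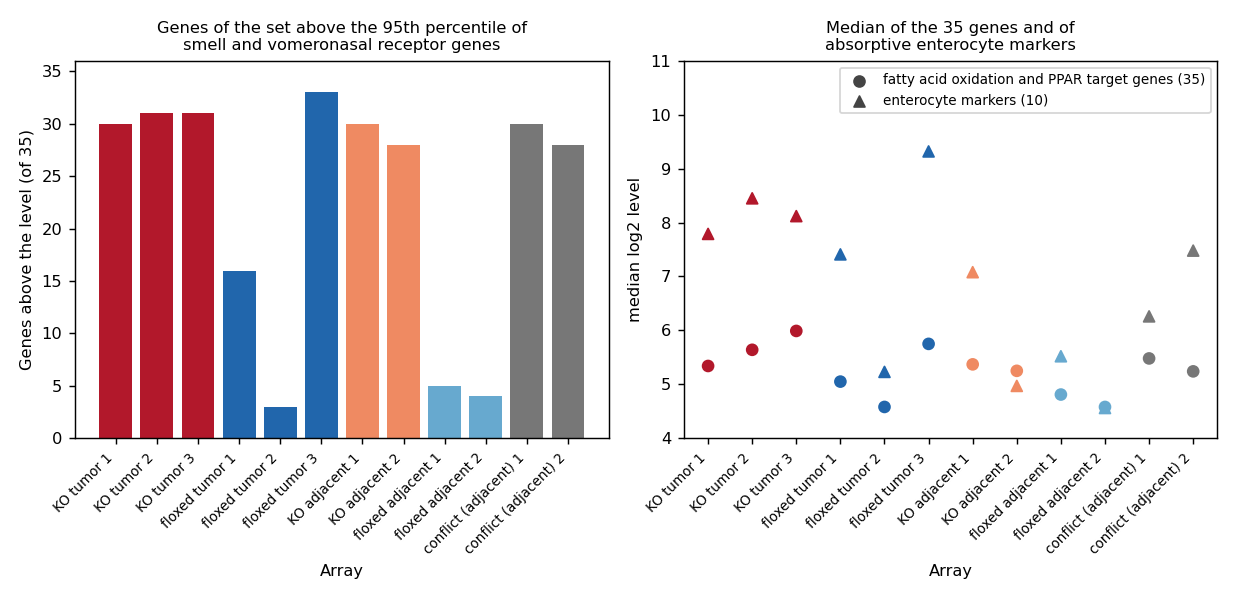
The plot counts, for each array on the horizontal axis, how many of the 35 genes stood above the dark level, and sets the median log2 value of the 35 genes (circles) beside that of 10 absorptive enterocyte markers (triangles). The 5 KO arrays held 28 to 31 genes above the level and the 4 weak-signal arrays 3 to 16.

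The promoters were searched for the sequence that PPARs and their partner read, a direct repeat of AGGTCA and AGGTCA with any 1 base (N) between them, on both strands, since many of these genes are named as PPAR targets. RefSeq windows of 250 bases before to 50 bases after the gene start (build GRCm38.p6) were at hand for 29 of the 38 genes, in 30 windows. The 9 genes without a window, Angptl4, Vnn1, Klf10, Cyp4a10, Cyp4a14, Crat, Acaa2, Decr1 and Hsd17b4, were not searched. Nor was sequence outside the windows, so a repeat there would be missed. Neither an exact repeat nor one with at most 1 mismatch was in any of the 30 windows, against 0.0396% and 0.554% of 32851 windows of all genes. With at most 2 mismatches 4 of the 30 windows held one (13.3%, against 3.86% of all windows). They are shown 5′ to 3′ on the strand of the gene, since they are the nearest these windows come to the repeat. Capitals mark the whole stretch of 13 letters, including the free base N and the 2 mismatches.
Etfa (chr9:55512300-55512328, minus strand): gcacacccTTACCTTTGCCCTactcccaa
Plin2 (chr4:86670264-86670292, minus strand): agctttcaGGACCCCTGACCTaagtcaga
Slc25a20 (chr9:108662134-108662162, plus strand): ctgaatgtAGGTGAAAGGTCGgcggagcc
Ucp3 (chr7:100472932-100472960, plus strand): tcagaattAGGTTTCAGGTCAgctggtgc
The match ended 64 bases before the start of Etfa, 212 bases before that of Plin2 and 38 bases before that of Ucp3, and its last letter was base 19 after the start in Slc25a20. In Etfa and Plin2 it read on the opposite strand. A match is a description of letters and shows no binding. In KO against floxed tumor epithelium, described next, none of these 4 genes passed the test, with differences of -0.06 ± 0.38 for Etfa, 0.74 ± 0.53 for Plin2, 0.89 ± 0.38 for Slc25a20 and -0.16 ± 0.35 for Ucp3.

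In tumor epithelium 1 of the 35 genes differed between KO and floxed arrays, and it was lower in KO. Eci2, an enoyl-CoA isomerase of peroxisomes that prepares unsaturated chains for oxidation, was measured at 3.61, 3.58 and 3.70 in KO tumor arrays and at 4.81, 4.43 and 4.77 in floxed tumor arrays. All KO arrays lay below all floxed arrays, and all but floxed tumor array 3 lay below their dark level. The difference was -1.04 ± 0.21 (SE, n = 3 and 3) with a limma adjusted p of 0.0492, where 1.08% of all genes passed, 0.682% being higher and 0.396% lower in KO. That call was narrow: the adjusted p ran from 0.00478 to 0.240 over 19 other settings and stayed past the threshold in 6 of them. With the variance taken from the 6 tumor arrays alone 0 of 35 genes passed, where 0.0401% of all genes did. With the array number as a block over all 10 arrays, 2 of the 35 genes passed with limma against 3.92% of all genes (2.15% higher, 1.77% lower). Eci2 fell (-1.04, adjusted p = 0.0430). Cpt1a, the carnitine palmitoyltransferase that controls entry into mitochondria, rose (1.13, adjusted p = 0.0400, or 0.109 without the block). The numbers met the rule for pairing only narrowly between tumor arrays, where 1 pair of unlike numbers reached 0.246. They did not pair the other groups, so these 2 calls rest on a block that the correlations hardly bear out. Cpt1a was 5.74, 6.21 and 6.68 in KO tumor arrays and 4.61, 4.86 and 5.75 in floxed tumor arrays, so that the lowest KO array and the highest floxed array overlapped.

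Across the set, 22 of 35 genes had a difference above 0 in tumor epithelium (62.9%, against 49.6% of all genes), and the median was 0.43, against -0.01 over all genes. An unadjusted p under 0.05 was found for 10 genes, where 23.0% of all genes had one. Groups did not overlap in 5 genes (14.3%, against 27.0% of all genes). Of these, Acadm, Acads, Acaa1b and Decr2 were higher in each KO array than in each floxed array (13.2% of all genes were), and Eci2 was lower (13.9% of all genes were). The share without overlap was below that of all genes. The median was 0.08 without floxed tumor array 2 and 0.71 without floxed tumor array 3. Floxed tumor arrays 1 and 2 were weak, and values without them are given below. Cell type markers moved with the set: 9 of 10 enterocyte markers (median 0.86), 8 of 10 epithelial markers (median 0.47) and 7 of 10 fibroblast markers (median 0.43, 1 of them called) were above 0, and their part in the difference was not tested.

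With all 3 floxed tumor arrays, the largest differences were in enzymes of the later and first mitochondrial steps. Hadha, the alpha subunit of the trifunctional protein that carries out the hydration and second dehydrogenation of long chains, was 6.66, 7.25 and 7.56 in KO tumor arrays and 3.91, 4.93 and 7.62 in floxed tumor arrays. Its highest floxed array exceeded all KO arrays, and the difference of 1.67 ± 0.72 (SE, n = 3 and 3) did not pass (limma adjusted p = 0.198). Hadh, the dehydrogenase for medium and short chains, was 6.12, 6.84 and 7.20 in KO tumor arrays and 5.39, 3.15 and 6.67 in floxed tumor arrays, a difference of 1.65 ± 0.71 (adjusted p = 0.199). Acadm, the medium-chain acyl-CoA dehydrogenase, was 5.98, 6.36 and 6.28 in KO tumor arrays and 4.84, 3.75 and 5.50 in floxed tumor arrays. Its groups did not overlap, but the difference of 1.51 ± 0.46 did not pass either (adjusted p = 0.107). The dark levels of floxed tumor arrays 1 and 2 were 5.10 and 5.33. All values of these genes on those arrays lay under them, except 5.39 for Hadh. Against floxed tumor array 3 alone the differences were -0.46 for Hadha, 0.04 for Hadh and 0.70 for Acadm.

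Below 0, next to Eci2, stood a pair of target genes. Cyp4a10, a fatty acid omega-hydroxylase known as a strong PPAR-alpha target in mouse liver, was 3.21, 3.28 and 4.32 in KO tumor arrays and 4.00, 4.89 and 4.78 in floxed tumor arrays. The groups overlapped, and the difference was -0.95 ± 0.40 (adjusted p = 0.191); a second probe set for Cyp4a10 is shared with Cyp4a31 and Cyp4a32, so related genes may contribute. Pdk4, the kinase that shuts off pyruvate oxidation when fat is burned, was 4.43, 5.48 and 5.85 in KO tumor arrays and 5.17, 4.58 and 8.42 in floxed tumor arrays. Floxed tumor array 3 was the highest of the 6 and the other floxed arrays lay within the KO range, and the difference was -0.80 ± 0.81 (adjusted p = 0.577).

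By role, the 8 measured genes grouped here as targets had a median below 0 and the other roles medians above 0, a difference that was not tested. These medians use all 3 floxed tumor arrays and are not given for other choices of arrays. The signs behind them depend on that choice: 16 of 35 genes changed sign without weak-signal arrays, and 6 without floxed tumor array 3, Pdk4 and Angptl4 among the latter. The roles do not part PPAR targets from enzymes, since genes of the other roles may be PPAR targets too. Cyp4a10 and Cyp4a14, both grouped as targets, passed the dark level on 1 and 0 of 12 arrays. A separate list of 27 other measured PPAR targets had a median of 0.13. Of 8 measured targets 2 had a difference above 0, with a median of -0.15, and 0 passed. Among the 5 genes of activation and entry 4 were above 0 (median 0.89), among the 7 of the first dehydrogenation and electron transfer 5 (median 0.18), among the 7 of the later mitochondrial steps 6 (median 0.47), and among the 8 of peroxisome and cytosol 5 (median 0.59). Eci2 was the 1 gene called in any role.

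**Figure D2:**
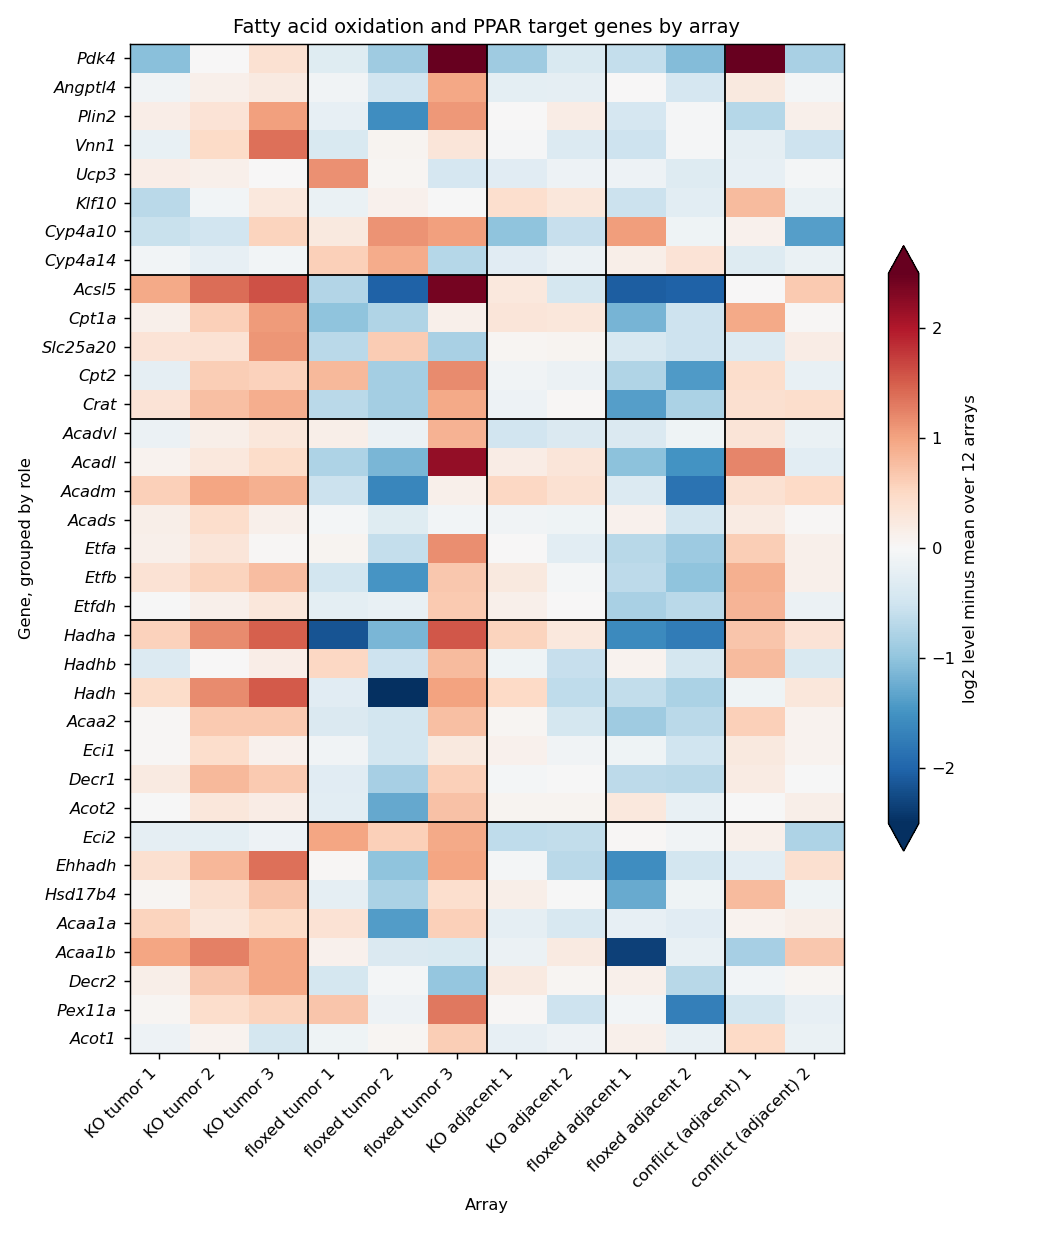
The map shows each gene (rows, by role) on each array (columns, grouped by label), as log2 value minus the gene's mean over the 12 arrays, with the colour scale ended as its bar shows. The weak-signal floxed arrays are low in most enzymes, and Pdk4 is high in floxed tumor array 3 (8.42) and conflict array 1 (8.10).

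**Figure D3:**
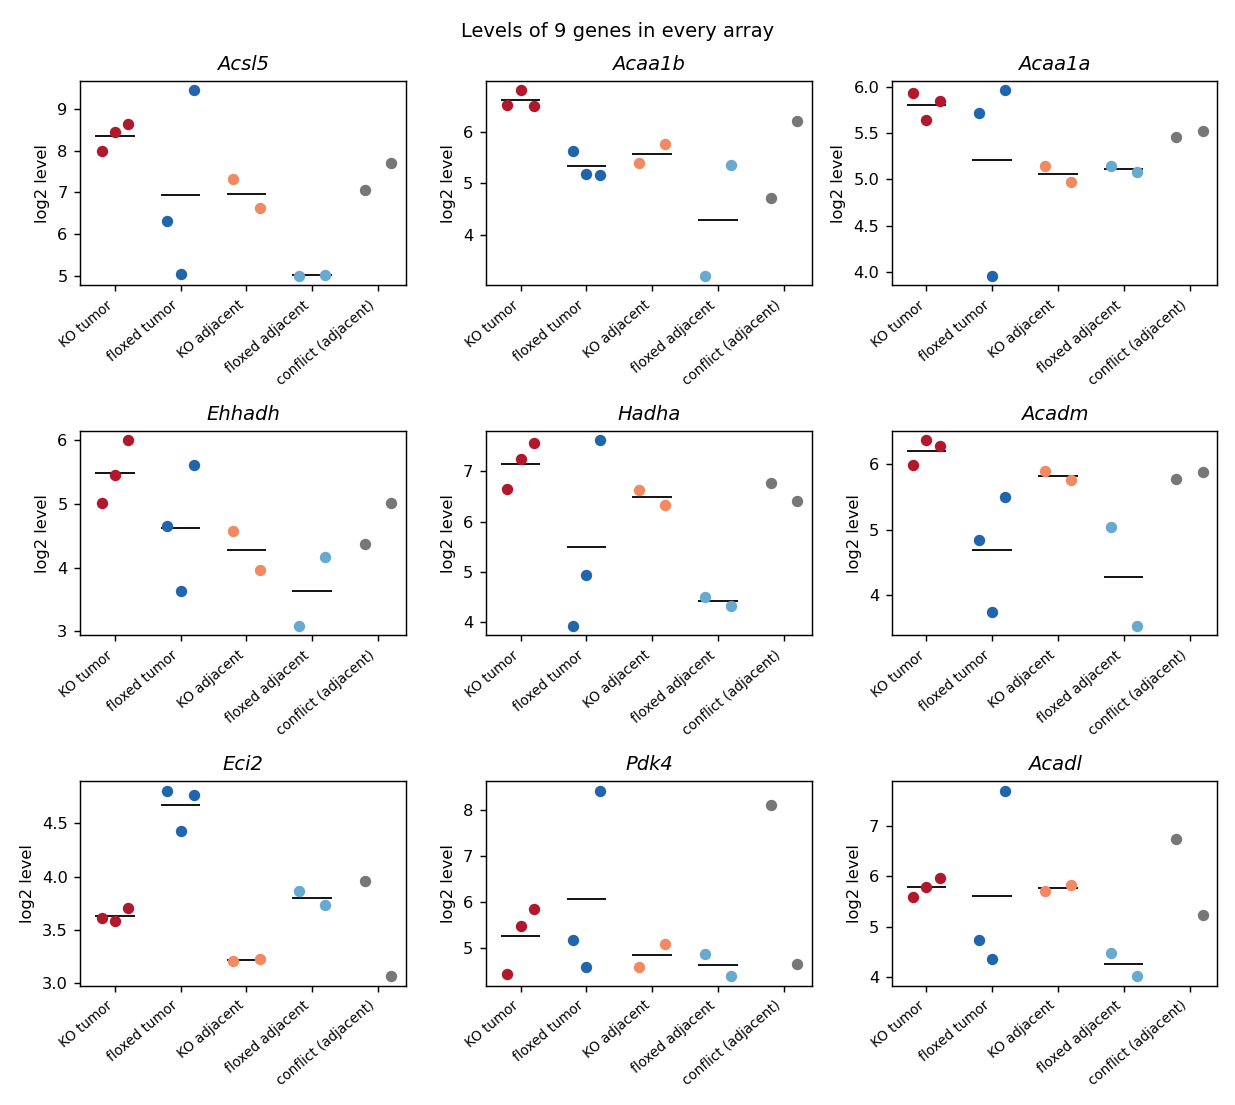
The panels give the log2 value of 9 genes on every array, with 1 point per array, the groups side by side and a line at the mean of each group of agreed genotype. Eci2 is lower in all KO tumor arrays (3.58 to 3.70) than in all floxed tumor arrays (4.43 to 4.81).

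The tumor comparison depended on which floxed arrays stood in it. Floxed tumor array 3 had an epithelial marker median of 8.01, against 6.44 to 6.93 on KO tumor arrays. Its absorptive enterocyte marker median was 9.32, against 7.79 to 8.45. Its fibroblast marker median was 4.59, against 4.88 to 5.10, and the part of these markers was not tested. Against floxed tumor array 3 alone, the 1 floxed tumor array without weak signal, 14 of 35 genes passed, where 19.4% of all genes did (9.47% higher, 9.92% lower); the lone array was assumed to vary like the other groups. The median difference was then -0.28, and 10 of 35 genes were above 0. Those higher in KO were Slc25a20, the carnitine-acylcarnitine carrier of the inner membrane (1.41 ± 0.29, adjusted p = 0.0151), Acaa1b, a peroxisomal thiolase (1.44 ± 0.21, adjusted p = 0.00549), Decr2, a peroxisomal dienoyl-CoA reductase (1.57 ± 0.29, adjusted p = 0.0108), Acadm (0.70) and Cyp4a14 (0.60).

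Lower in KO against that array were 9 genes. Pdk4 differed by -3.17 ± 0.47 (adjusted p = 0.00546) and Acadl, the long-chain acyl-CoA dehydrogenase, by -1.93 ± 0.19 (adjusted p = 0.00221). Eci2 (-1.14), Acsl5, a long-chain acyl-CoA synthetase (-1.09), Etfa, a subunit of the electron transfer flavoprotein (-1.01), and Pex11a, a factor of peroxisome division (-0.96), also passed. So did Angptl4, a secreted inhibitor of lipoprotein lipase (-0.88), Acot1, a cytosolic acyl-CoA thioesterase (-0.78), and Acadvl (-0.77).

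Without floxed tumor array 3, leaving the weak-signal arrays as the floxed group, 15 of 35 genes passed, where 29.1% of all genes did, 13 higher and 2 lower in KO. Hadha (2.74 ± 0.34, adjusted p = 9.4e-04), Acsl5 (2.69 ± 0.38, adjusted p = 0.00135) and Hadh (2.45 ± 0.59, adjusted p = 0.0122) were the 3 largest. The lower ones were Eci2 (-0.99, adjusted p = 0.00751) and Cyp4a14 (-0.88, adjusted p = 0.0131). Eci2 was lower and Acadm higher (0.70 and 1.91) in KO with either choice of floxed arrays. Their signs could not change, since their KO and floxed tumor arrays did not overlap and both choices use the same KO arrays. The same holds for Acads, Acaa1b and Decr2. Other genes, such as Acsl5 (-1.09 and 2.69), Acadl (-1.93 and 1.23) and Cyp4a14 (0.60 and -0.88), had opposite signs with the different choices.

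**Figure D4:**
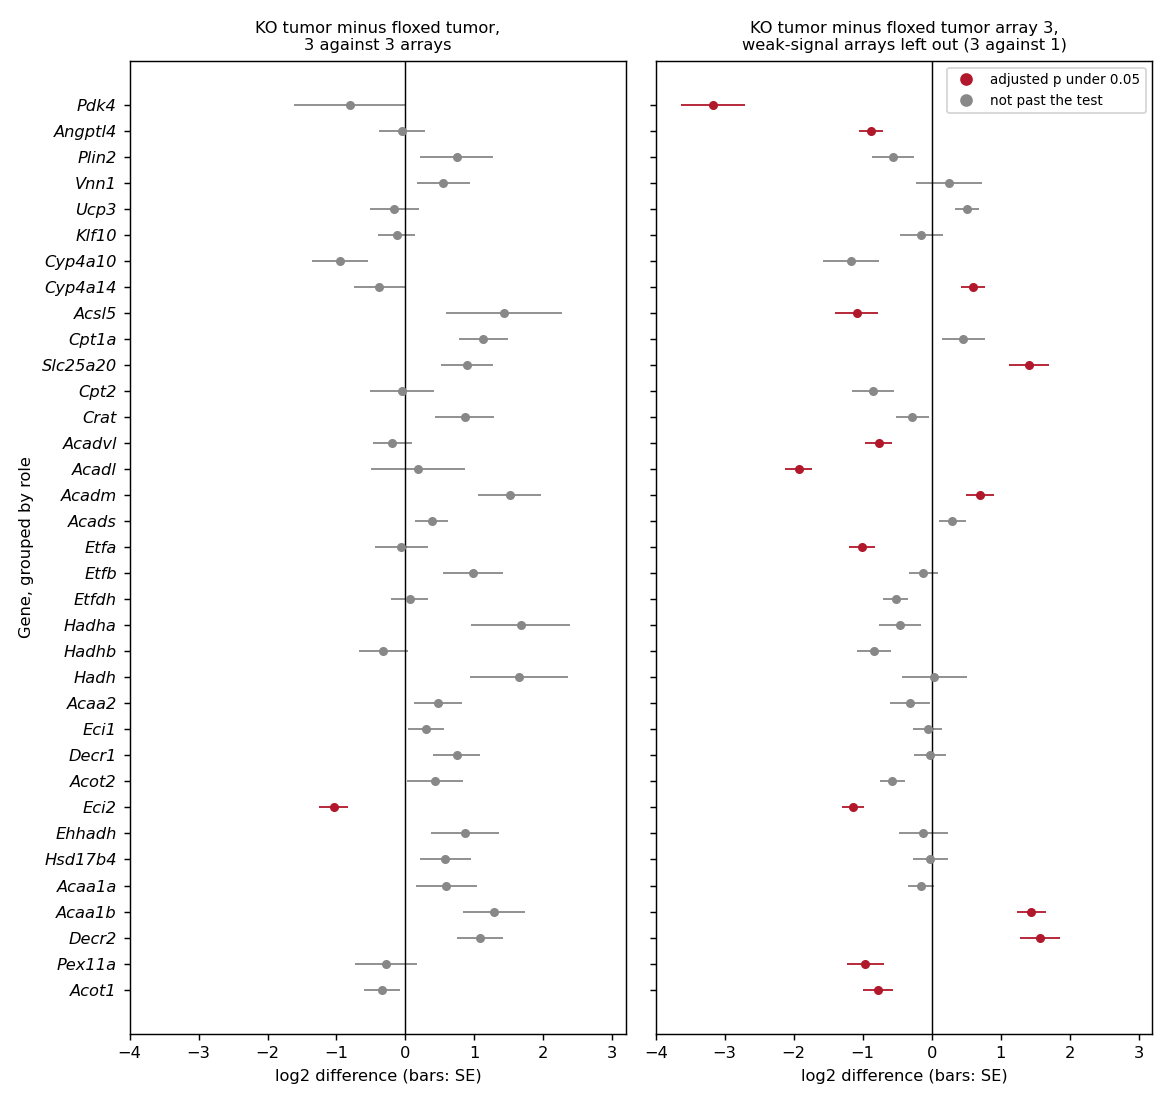
The points give the log2 difference of KO minus floxed tumor epithelium for each gene with its SE, for all arrays on the left and against floxed tumor array 3 alone on the right; red marks an adjusted p under 0.05. Eci2 is red on the left (-1.04), and Pdk4 lies farthest from 0 on the right (-3.17).

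In adjacent epithelium 0 of 35 genes passed between KO and floxed arrays with limma, where 6.06% of all genes did (2.91% higher, 3.15% lower), and 8 had an unadjusted p under 0.05, where 28.2% of all genes did. The difference was above 0 in 27 of 35 genes (77.1%, against 47.6% of all genes), and the median was 0.57, against -0.04 over all genes. Groups did not overlap in 18 genes that were higher and 3 that were lower in KO, together 60.0% of the set, against 67.1% of all genes (32.1% higher, 35.0% lower). No KO array of this comparison was weak and both floxed arrays were, and the epithelial markers were higher in KO in 10 of 10 genes (median 1.86); the part of signal in the difference of the set was not tested, since no floxed adjacent array without weak signal has an agreed label.

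With the variance taken from the 4 adjacent arrays alone, 3 of 35 genes passed, all higher in KO, where 17.2% of all genes passed (8.92% higher, 8.31% lower). Hadha was 6.64 and 6.33 in KO adjacent arrays and 4.49 and 4.32 in floxed adjacent arrays, a difference of 2.08 ± 0.25 (SE, n = 2 and 2, adjusted p = 0.0160). Acsl5 was 7.32 and 6.62 in KO adjacent arrays and 4.99 and 5.02 in floxed adjacent arrays, a difference of 1.97 ± 0.31 (adjusted p = 0.0193). Acadl was 5.70 and 5.82 in KO adjacent arrays and 4.48 and 4.01 in floxed adjacent arrays, a difference of 1.51 ± 0.27 (adjusted p = 0.0228). None of these 3 genes overlapped between the genotypes, and each was at 4.01 to 5.02 in the floxed arrays, under their dark levels of 5.15 and 5.20.

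Within the KO mice 34 of 35 genes had a higher mean in tumor than in adjacent epithelium (97.1%, against 57.3% of all genes), a comparison in which no array was weak. The median difference was 0.43, against 0.04 over all genes. With limma over all 4 groups 0 of 35 genes passed, where 0.0201% of all genes did, and 1 gene, Ehhadh, had an unadjusted p under 0.05, where 2.47% of all genes did. Groups did not overlap in 18 genes higher and 1 lower in tumor, 54.3% of the set, against 32.1% of all genes (17.9% higher, 14.1% lower). The 5 KO arrays resembled each other, with r = 0.947 to 0.973 over all probe sets.

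With the variance taken from the 5 KO arrays alone, 3 of 35 genes rose in tumor and 0 fell, where 1.85% of all genes passed (0.557% higher, 1.29% lower). Acsl5, which activates long-chain fatty acids, was 8.00, 8.45 and 8.64 in KO tumor arrays and 7.32 and 6.62 in KO adjacent arrays, a difference of 1.39 ± 0.25 (SE, n = 3 and 2, adjusted p = 0.0378). Acaa1b, a peroxisomal thiolase, was 6.53, 6.81 and 6.50 in KO tumor arrays and 5.39 and 5.77 in KO adjacent arrays, a difference of 1.03 ± 0.17 (adjusted p = 0.0301). Acaa1a, its close relative, was 5.93, 5.64 and 5.84 in KO tumor arrays and 5.14 and 4.97 in KO adjacent arrays, a difference of 0.75 ± 0.15 (adjusted p = 0.0486). In these 3 genes every tumor array exceeded every adjacent array; Acaa1a and Acaa1b are so alike that their probes may read both.

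These 3 calls rested on few arrays. Leaving out KO tumor array 2, KO adjacent array 1 or KO adjacent array 2, or adding either conflict array by its title or its characteristic, left 0 of 35 genes past the threshold. Leaving out KO tumor array 1 left 4 (Acaa1b, Acsl5, Crat and Ehhadh), and leaving out KO tumor array 3 left the same 3.

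The other large differences in KO epithelium did not pass. Ehhadh, the bifunctional enzyme of the peroxisomal cycle, was 5.02, 5.46 and 6.0 in KO tumor arrays and 4.58 and 3.96 in KO adjacent arrays, without overlap; its difference was 1.22 ± 0.29 (adjusted p = 0.0844 over the KO arrays alone). Hadh was 6.12, 6.84 and 7.20 in KO tumor arrays and 6.16 and 5.04 in KO adjacent arrays, with overlap, and differed by 1.12 ± 0.37 (adjusted p = 0.223).

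At the other end stood Klf10, Acot1 and Acadl. Klf10, a zinc finger factor induced by TGF-beta, was 4.41, 5.0 and 5.35 in KO tumor arrays and 5.49 and 5.36 in KO adjacent arrays, all tumor arrays lying below, and differed by -0.50 ± 0.25 (adjusted p = 0.433). Acot1 was 3.56, 3.79 and 3.25 in KO tumor arrays and 3.49 and 3.56 in KO adjacent arrays, a difference of 0.01 ± 0.17 (adjusted p = 0.988). Acadl was 5.59, 5.78 and 5.97 in KO tumor arrays and 5.70 and 5.82 in KO adjacent arrays, a difference of 0.03 ± 0.15 (adjusted p = 0.964). Acot1 and Acadl thus overlapped fully between the tissues, and their sign changed with the setting.

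Every role had a positive median in KO tumor against KO adjacent epithelium. The median was 0.37 for the 8 targets (7 above 0), 0.54 for the 5 genes of activation and entry (5 above 0), and 0.33 for the 7 genes of the first dehydrogenation and electron transfer (7 above 0). It was 0.60 for the 7 genes of the later mitochondrial steps (7 above 0) and 0.53 for the 8 of peroxisome and cytosol (8 above 0). Markers of absorptive enterocytes moved with the set: 10 of 10 were higher in KO tumor than in KO adjacent arrays, with a median difference of 1.66, and their median level was 7.79 to 8.45 in KO tumor and 4.97 to 7.08 in KO adjacent arrays. Fibroblast markers were lower in tumor in 9 of 10 genes (median -0.21; level 4.88 to 5.10 in KO tumor and 5.43 to 5.48 in KO adjacent arrays). Epithelial markers were higher in tumor in 4 of 10 genes and lower in 6 (median -0.14). In dissected tissue, fewer cells of a type and less RNA per cell cannot be told apart. The part of these marker lists in the difference of the oxidation genes was not tested. Adipocyte markers were near the dark level, with 1 of 5 genes above it on each KO array.

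**Figure D5:**
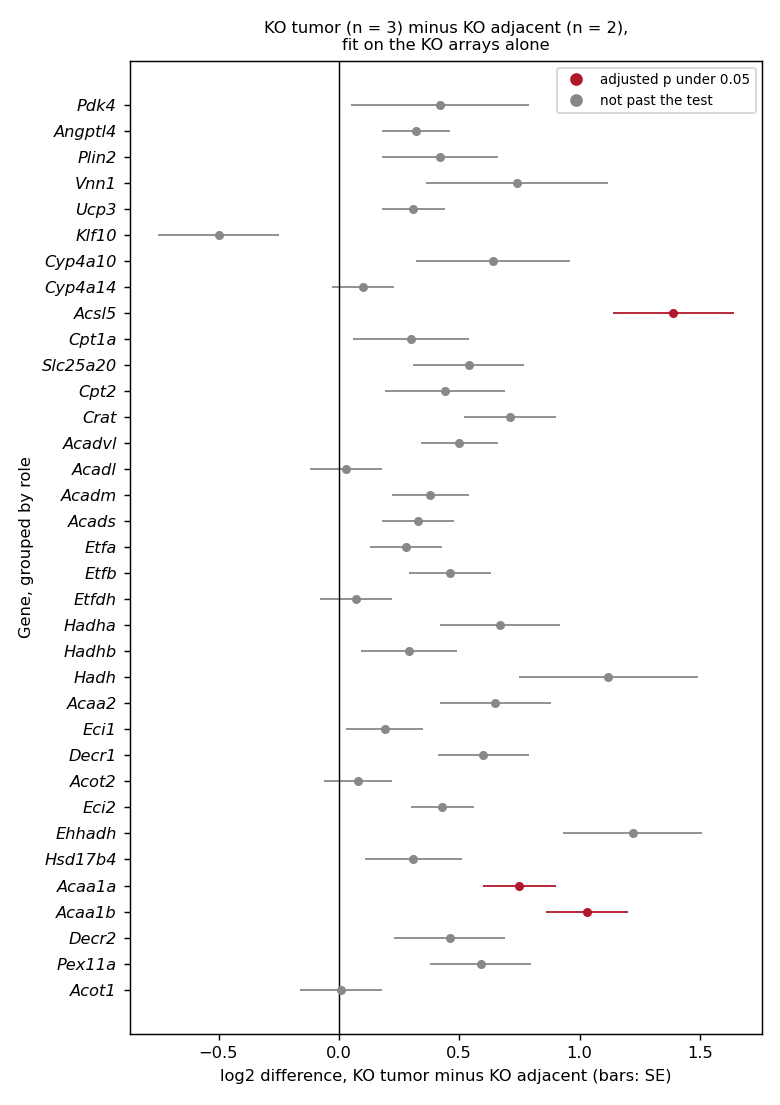
The points give the log2 difference of KO tumor minus KO adjacent epithelium for each gene with its SE, from the KO arrays alone; red marks an adjusted p under 0.05. All genes but Klf10 (-0.50) lie at or above 0, and Acsl5 (1.39) lies farthest from it.

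In floxed epithelium 0 of 35 genes passed between tumor and adjacent arrays, where 0.00502% of all genes did, and 5 had an unadjusted p under 0.05, where 12.5% of all genes did. The difference was above 0 in 32 of 35 genes (91.4%, against 49.2% of all genes), with a median of 0.44, against -0.01 over all genes, and 6 genes were higher in tumor without overlap (17.1%, against 18.8% of all genes in either direction, 8.64% higher and 10.1% lower). The median was 0.21 without floxed tumor array 3 and 0.81 without floxed tumor array 2. Enterocyte markers were higher here too, in 10 of 10 genes (median 2.30). Over all 12 arrays 0 of 35 genes passed between tumor and adjacent epithelium, where 0% of all genes did, and 3 (Eci2, Ehhadh and Pex11a) had an unadjusted p under 0.05, where 2.57% of all genes did; 33 of 35 were above 0 (94.3%, against 50.8% of all genes), with a median of 0.36, and 0 stood clear of overlap, where 0.196% of all genes did.

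The difference between tumor and adjacent epithelium was not found to depend on genotype. In the test of that interaction 0 of 35 genes passed, where 0% of all genes did, and 0 had an unadjusted p under 0.05, where 6.42% of all genes did. The median interaction was -0.02, 13 of 35 genes were above 0 (37.1%, against 52.4% of all genes), and single genes ranged from -1.33 (Acadl) to 1.01 (Hadh), with SE of 1.08 and 1.13, so that sizeable differences cannot be seen with these arrays.

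The other genes of the pathway were taken from 3 lists. Of 32 measured genes of other oxidation steps, 2 rose and 0 fell in KO against floxed tumor epithelium, where 0.682% of all genes were called higher and 0.396% lower: Acsf2, an acyl-CoA synthetase (1.31 ± 0.25, adjusted p = 0.0460), and Mcee, the methylmalonyl-CoA epimerase that serves odd-numbered chains (1.44 ± 0.29, adjusted p = 0.0482). Both calls were lost with the variance of the 6 tumor arrays alone (adjusted p = 0.139 for each). In adjacent epithelium Mcee rose (1.58 ± 0.36, adjusted p = 0.0343) and Eci3, an isomerase related to Eci2, fell (-1.29 ± 0.32, adjusted p = 0.0445), where 6.06% of all genes passed. Over the 4 adjacent arrays alone, where 17.2% of all genes passed, 5 of the 32 were higher (Mcee, Slc27a4, Abcd3, Crot and Phyh) and 1 was lower (Eci3) in KO. Within KO epithelium 0 of the 32 passed over all groups, and 2 rose in tumor over the KO arrays alone, where 1.85% of all genes passed: Slc27a2 (1.33, adjusted p = 0.0416) and Slc27a4 (0.98, adjusted p = 0.0244), both fatty acid transport proteins with synthetase activity.

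Of 27 measured genes from a list of other PPAR targets, 0 passed in tumor epithelium and 1 in adjacent epithelium, where Fads2, a fatty acid desaturase, rose (1.38 ± 0.35, adjusted p = 0.0472) and 6.06% of all genes passed. Over the 4 adjacent arrays alone, where 17.2% of all genes passed, 5 were higher (Gpd1, Fads2, Pnpla2, Txnip and Fabp1) and 1 was lower (Cyp8b1) in KO. Their median difference was 0.13 in tumor and 0.17 in adjacent epithelium. The largest difference in KO tumor against KO adjacent epithelium was that of Fabp2, the intestinal fatty acid binding protein (2.28, adjusted p = 0.142 over the KO arrays alone), which is also one of the enterocyte markers. Over the KO arrays alone Apoa1, an apolipoprotein made by enterocytes, rose (1.05, adjusted p = 0.0418) and Fads2 fell in tumor (-1.01, adjusted p = 0.0403). Among 5 measured ketone body genes 0 passed in any of these 3 comparisons, and their differences lay between -0.38 and 0.93.

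The receptors themselves did not pass between the genotypes over all 4 groups. Ppard was 6.06, 6.07 and 6.50 in KO tumor arrays and 4.95, 4.48 and 5.79 in floxed tumor arrays. It was higher in the arrays labelled KO without overlap (1.14 ± 0.33, limma adjusted p = 0.0991), as 13.2% of all genes were. On floxed tumor arrays 1 and 2 it lay under the dark levels of 5.10 and 5.33. In adjacent epithelium Ppard was also higher in KO without overlap (0.78 ± 0.41), as 32.1% of all genes were. Its floxed values there, 5.09 and 4.61, lay under the dark levels. Ppara was 4.57, 4.96 and 5.08 in KO tumor arrays and 4.22, 4.47 and 5.66 in floxed tumor arrays, and Pparg was 4.97, 5.20 and 5.79 in KO tumor arrays and 5.26, 3.70 and 6.49 in floxed tumor arrays. Both overlapped between the genotypes. In adjacent epithelium Pparg was 5.28 and 5.19 in KO arrays and 4.21 and 4.02 in floxed arrays, both floxed values lying under the dark levels of 5.15 and 5.20. KO was higher by 1.12 against these background values, with an adjusted p of 0.0324 over the 4 adjacent arrays alone, where 17.2% of all genes passed, and of 0.296 over all 4 groups.

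A pair of arrays with different labels shared the highest Pdk4 values. Pdk4 was 8.42 in floxed tumor array 3 and 8.10 in conflict array 1, against 4.38 to 5.85 on the other 10 arrays. These 2 arrays correlated with each other at 0.900 over all probe sets, and at 0.812 to 0.852, over both, with the 6 other arrays without weak signal. Conflict array 1, floxed by its genotype characteristic and KO by its title, correlated at 0.822 to 0.852 with the 5 KO arrays. Conflict array 2, labelled the other way round, correlated with them at 0.956 to 0.973, where the KO arrays reached 0.947 to 0.973 among themselves. The genotype of the conflict arrays was not tested. The epithelial marker median was 8.01 in floxed tumor array 3 and 8.14 in conflict array 1, against 6.09 to 7.07 on the 6 others. The fibroblast marker median was 4.59 and 4.83, against 4.88 to 5.48, and the part of these markers was not tested. Floxed tumor array 3 and conflict array 1 lay outside the range of those 6 on the same side in 13 of 35 genes (37.1%, against 31.9% of all genes). They were above it in 9 (25.7%, against 15.2% of all genes), namely Pdk4, Angptl4, Acadvl, Acadl, Etfa, Etfdh, Hadhb, Eci2 and Acot1. They were below it in 4 (against 3328 of all 19938 genes), namely Cyp4a14, Slc25a20, Acaa1b and Decr2. Pparg was also high on both, at 6.49 in floxed tumor array 3 and 7.37 in conflict array 1. Since array 3 is 1 of 3 floxed tumor arrays, it bears on the values of these 13 genes in the tumor comparison, to differing degrees. Without it the difference of Pdk4 went from -0.80 to 0.38 and that of Acadl from 0.18 to 1.23. Those of Eci2 (-1.04 and -0.99) and Acaa1b (1.28 and 1.20) hardly moved. The part of array 3 was tested only by leaving it out, as given above.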

How the data were processed

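RNA of laser-cut epithelium was prepared with a GeneChip WT Pico kit and biotin label, per the labels' protocols. The deposited table gives 1 column of log2 values per array, made with Partek and RMA per the submitters' processing notes; versions, filters and further steps are not given in the sources used here. Of 35556 probe sets, 21789 carried 1 gene symbol in the platform annotation, and each gene took the one with the highest mean. Groups came from the labels. The 4 groups of agreed genotype (10 arrays) were fitted together with limma 3.58.1 in R 4.3.3 (lmFit, eBayes, two-sided, Benjamini-Hochberg over 19938 genes), and a call is an adjusted p under 0.05. The comparison over 12 arrays had no covariate. The steps were tested on simulated data.

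The genes, lists and alternatives were chosen with earlier results of these data known. Values of each array were given for genes called in the fit of 4 groups or in the fit on only the arrays compared, and for the 3 largest and 3 smallest differences in the tumor comparison and in KO tumor against KO adjacent epithelium; other genes are given by counts and ranges. Deviations from the group means of KO and floxed tumor arrays with the same number correlated at r = 0.105, 0.121 and 0.347, which met the rule for pairing (each over 0.1), although no label says what a number shares and other pairs reached 0.246. The numbers did not pair the other groups (r of -0.129 to 0.062), but the block covered all 10 arrays. Precision is limited by the few arrays. Alternatives were quantile scaling, a filter on dim genes, the mean of probe sets, other variance options, array weights, fits on only the arrays compared, leaving out each array in turn, the block, the weak-signal arrays left out, and both readings of the conflicting labels.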

Additional observations from a re-analysis of the deposited data

Results flagged for a closer look

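Klf10 was picked from the 35 genes because its arrays were ordered in opposite directions in KO and floxed epithelium. Tumor and adjacent arrays did not overlap, in either direction, in 32.1% of all genes in KO and 18.8% in floxed epithelium. The share of all genes with opposite directions was not counted. In KO epithelium all 3 tumor arrays (4.41, 5.0 and 5.35) lay below both adjacent arrays (5.49 and 5.36), whereas in floxed epithelium all 3 tumor arrays (4.91, 5.19 and 5.07) lay above both adjacent arrays (4.54 and 4.82). The difference of the tumor-minus-adjacent differences, KO minus floxed, was -0.88 ± 0.43 with a limma adjusted p of 0.804, so it did not pass. Of the 5 floxed arrays behind it 4 had weak signal. On these 4 Klf10 lay under the dark level, which was 5.10 and 5.33 in floxed tumor arrays 1 and 2 and 5.15 and 5.20 in the floxed adjacent arrays.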

How the results depend on the processing

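The number of oxidation genes past the threshold depended on the settings, and in KO against floxed tumor epithelium so did the direction of the set. The share of all genes called moved with the settings too. In KO against floxed tumor epithelium it was 1.08% with all 4 groups and 0.0401% with only the arrays compared. It was 3.92% with the replicate block and 29.1% without floxed tumor array 3. Shares with array weights are not given here, and the counts below do not describe a change particular to the set. In KO against floxed tumor epithelium 1 gene passed; 0 did with the conflicting labels read by title, without the dimmest 30% of genes, with trended robust variance, with only the arrays compared and with quantile normalization, 2 with the replicate block, 5 with array weights and 14 without weak-signal arrays, and leaving out 1 array gave 0 to 15. Its median of 0.43 became -0.28 without weak-signal arrays and was 0.08 to 0.71 with 1 array left out. In adjacent epithelium 0 passed; 2 did with the replicate block, 3 with only the arrays compared, 4 with array weights and 0 to 7 with 1 array left out (7 without floxed tumor array 3, which entered only through the variance). Its median of 0.57 became 0.22 and 0.29 with the conflicting labels read by characteristic and by title, 0.39 with quantile normalization and 0.37 to 0.61 with 1 array left out. In KO tumor against KO adjacent epithelium 0 passed; 3 did with only the arrays compared or without weak-signal arrays (which leaves the same 5 arrays), 6 with array weights, and 0 to 4 over the KO arrays with 1 left out; its median stayed between 0.26 and 0.59. In floxed tumor against adjacent epithelium 0 passed, or 0 to 1 with 1 array left out (Cpt2 without floxed tumor array 2); its median of 0.44 was 0.21 to 0.81. In the interaction and over all 12 arrays 0 passed under every alternative run.

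In KO against floxed tumor epithelium 16 of 35 genes changed sign without weak-signal arrays and 6 without floxed tumor array 3. Acadl in KO tumor against KO adjacent epithelium was -0.30 by title, alone or with only the KO arrays, -0.55 with the replicate block, and -0.07 to 0.12 with 1 array left out (-0.04 without KO adjacent array 1, -0.07 without KO tumor array 3). Acot1 there was -0.21 by title, -0.01 with quantile normalization, -0.03 with the replicate block, and -0.12 to 0.15 with 1 array left out (-0.03 without KO adjacent array 1, -0.0046 and -0.12 over the KO arrays without KO tumor array 1 and 2). Among the genes with the largest and smallest differences in tumor epithelium, Hadha was -0.46 without weak-signal arrays, and Pdk4 was 0.38 without floxed tumor array 3 and -1.54 to 0.38 over all arrays left out in turn. The cause was not tested. Without weak-signal arrays no value exists for the comparisons that need floxed adjacent arrays. The replicate block changed no call of the text beside those given. The alternatives that add a conflict array to the KO arrays, or leave out 1 of them, were chosen after seeing the data. Most of the set on the weak-signal arrays, and Eci2, Acot1 and both Cyp4a genes on nearly all arrays, lay under the dark level, so their differences are among values at background.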
